A study of Ovis aries with 3 samples.

Results

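The barcodes described here are the droplets at the low end of 2 single-cell libraries of lamb rumen epithelium. Each had at least 200 and under 500 genes detected and under 20% of its UMIs (unique molecular identifiers, each counting 1 captured transcript) from the 13 protein-coding mitochondrial genes. There were 1077 such barcodes among the 7032 of the library from lambs fed milk only (15.3%) and 331 among the 9214 of the library from lambs fed milk with concentrate starter (3.59%). Together they were 1408 of 16246 barcodes in these libraries and of 25789 in the series. Their summed counts were set against those of the barcodes of the same library and mitochondrial limit with at least 500 genes, called reference barcodes here, of which there were 3850 and 4891. The libraries came from rumen epithelium of Hu sheep at 42 days of age, dissociated with trypsin-EDTA, with 1 library per diet. The labels do not give the number of lambs behind a library, the feeding schedule or the sex. A library from lambs given milk and alfalfa hay held 34 barcodes by the same rule and is given for description only.

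The rumen is lined by a stratified squamous epithelium. Its basal cells divide on the basement membrane, and their progeny move up through spinous and granular layers and flatten into a cornified layer. In that last step keratinocytes cross-link proteins under the plasma membrane into a cornified envelope, and in full cornification they lose the nucleus and most RNA. In parakeratosis, the condition named in the title of the study, nuclei persist in the cornified layer. The working name of these barcodes is low-gene barcodes rich in cornified transcripts, after 4 genes: CNFN (cornifelin, a cornified envelope protein), TGM1 (transglutaminase 1, which cross-links the envelope), SPINK5 (an inhibitor of epidermal serine proteases) and KRTDAP (a secreted protein of differentiating keratinocytes). The name depends on the library and on the barcodes compared with. In milk only the 4 genes were at least 2-fold higher than in the reference barcodes, but none was against those of 500 to under 1000 genes, where CNFN was lower. In concentrate, CNFN had 1 UMI and TGM1 had 2 UMIs, and SPINK5 and KRTDAP were at least 2-fold higher against the barcodes of 500 to under 1000 genes but not against all reference barcodes. These barcodes are therefore called low-gene barcodes below.

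The low-gene barcodes carried few UMIs, and the smallest barcodes present differed between libraries. The median was 1025 UMIs (728 to 7270) in milk only and 1296 (1047 to 3824) in concentrate, against 11021 and 8050 in the reference barcodes. Summed, the low-gene barcodes held 1184582 and 466440 UMIs. No concentrate barcode of any kind had fewer than 1047 UMIs, so milk only barcodes below that count had no counterpart there and the shares of 15.3% and 3.59% are not comparable across diets. Another 460 milk only and 1082 concentrate barcodes had genes detected in this range but at least 20% mitochondrial UMIs. The median mitochondrial share of the low-gene barcodes was 6.99% in milk only, near the 6.18% of the reference, and 1.22% in concentrate, against 10.2%. The milk only and concentrate libraries shared 15 cell barcodes, of which 4 and 2 were low-gene and none was low-gene in both. With 1 library per diet there is no replicate, no test was possible, and diet, lamb and library cannot be told apart. The 95% intervals given are exact and cover counting error only.

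**Figure D1:**
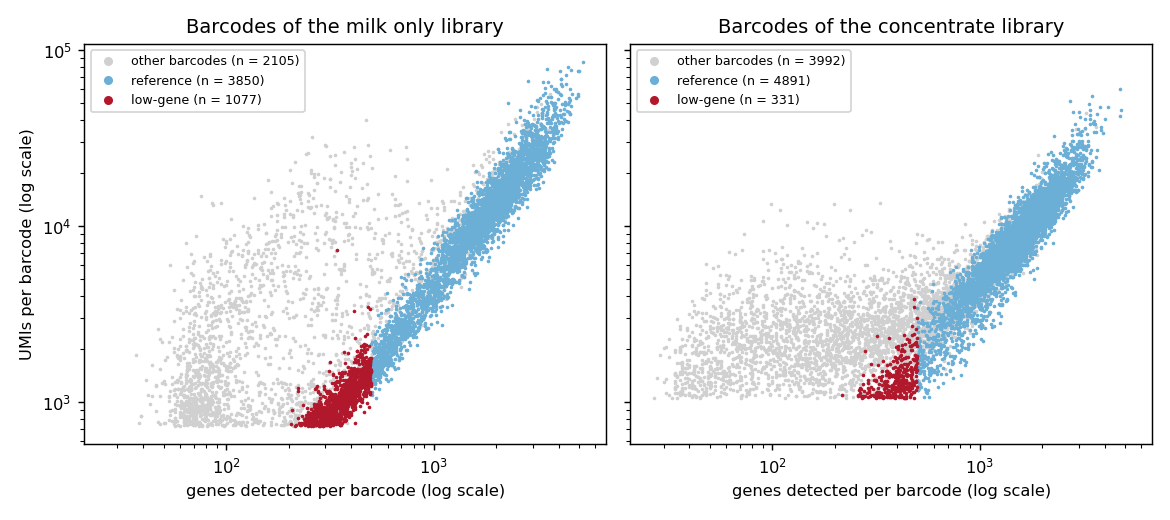
Each point is a barcode, with genes detected on the x axis and UMIs on the y axis, both on log scales, for milk only (left) and concentrate (right). The low-gene barcodes (red; n = 1077 and 331) continue the band of the reference barcodes (blue) down to the lowest UMI count in each library, while the grey points are the other barcodes.

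In milk only, the 4 genes were higher in low-gene than in reference barcodes. Levels are in CPM, the UMIs of a gene per 1000000 UMIs summed over a set of barcodes. These contrasts chose and named the barcodes, so the values are a description and support nothing. CNFN was at 236 CPM (95% interval 209 to 266, from 280 UMIs in 98 barcodes) against 67.9, which is 3.48-fold higher (3.07 to 3.93). TGM1 was at 142 CPM against 56.1, or 2.53-fold higher (2.15 to 2.96). SPINK5 was at 1695 CPM against 674, or 2.51-fold higher (2.40 to 2.63), with UMIs in 599 barcodes. KRTDAP was at 1238 CPM against 303, or 4.09-fold higher (3.87 to 4.31), in 521 barcodes. In concentrate, SPINK5 was at 169 CPM against 194 in the reference, a ratio of 0.871 (0.689 to 1.09), and KRTDAP was at 103 CPM against 54.3, a ratio of 1.89 (1.39 to 2.52), from 48 UMIs in 25 barcodes. Neither direction held throughout: the log2 ratio of KRTDAP turned from 0.92 to -0.47 against reference barcodes nearer in UMI count, and that of SPINK5 from -0.20 to 1.48 against barcodes of 500 to under 1000 genes and to 1.75 with a mitochondrial limit of 10%. The single CNFN UMI and the pair for TGM1 allow no direction. In the 34 hay barcodes CNFN and TGM1 had no UMI, SPINK5 had 4 UMIs, and KRTDAP had 48 UMIs in 8 barcodes, with 62.5% of them in 1 barcode.

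Per barcode, 64.1% of the milk only low-gene barcodes (61.1 to 66.9%) had a UMI of at least 1 of the 4 genes after each barcode was thinned to 700 UMIs, and 35.9% had at least 2 of the 4. In the reference barcodes thinned the same way these shares were 24.1% and 10.5%. Free RNA in the droplets can give such UMIs to any cell. In the 353 reference barcodes with 3 or more T cell or natural killer (NK) cell markers, which should lack these transcripts, the shares were 8.22% and 1.70%. Thinning also removes UMIs of free RNA from these deeper barcodes, so in neither library do their shares measure its part in low-gene barcodes. Before thinning the shares with at least 1 of the 4 were 69.1%, 54.1% and 34.6%, at median depths of 1025, 11021 and 5748 UMIs. After thinning, SPINK5 was found in 49.7% of the low-gene barcodes, KRTDAP in 42.7%, TGM1 in 8.26% and CNFN in 7.61%. In the T or NK barcodes they were in 5.67%, 2.83%, 0.283% and 1.13%. In concentrate, 8.16% of the low-gene barcodes (5.44 to 11.6%) had at least 1 of the 4 after thinning, against 3.35% of the reference and 0 of 43 T or NK barcodes, which allows a share of up to 8.22%. Before thinning these shares were 12.7%, 11.2% and 2.33%, at median depths of 1296, 8050 and 2347 UMIs. CNFN was found in 0 of 331 thinned concentrate barcodes, which allows a share of up to 1.11%.

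The milk only levels did not step at the limit of 500 genes for SPINK5, KRTDAP or KRT36 (an acidic type I keratin). SPINK5 was at 1695 CPM in low-gene barcodes, 1268 at 500 to under 1000 genes (n = 785), 280 at 1000 to under 2000 genes (n = 1577) and 813 at 2000 genes or more (n = 1488). KRTDAP ran 1238, 932, 215 and 302 CPM and KRT36 ran 3555, 2729, 644 and 869 CPM over the same ranges. CNFN was highest at 500 to under 1000 genes, with 347 CPM against 236 in the low-gene barcodes, and then 58.4 and 54.1. TGM1 was at 142, 128, 37.4 and 59.8 CPM. KRT15, a keratin of basal cells, showed the other order with 2487, 3149, 8340.5 and 7441 CPM. In milk only, high levels of the 4 genes and low KRT15 were thus found from 200 to under 1000 genes. In concentrate, SPINK5 was at 169, 60.6, 103 and 353 CPM and KRTDAP at 103, 48.8, 36.2 and 82.0 CPM, so the low-gene barcodes exceeded those of 500 to under 1000 genes at a far lower level. KRT15 was at 3068 CPM in the concentrate low-gene barcodes and at 8546 in those of 500 to under 1000 genes.

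**Figure D2:**
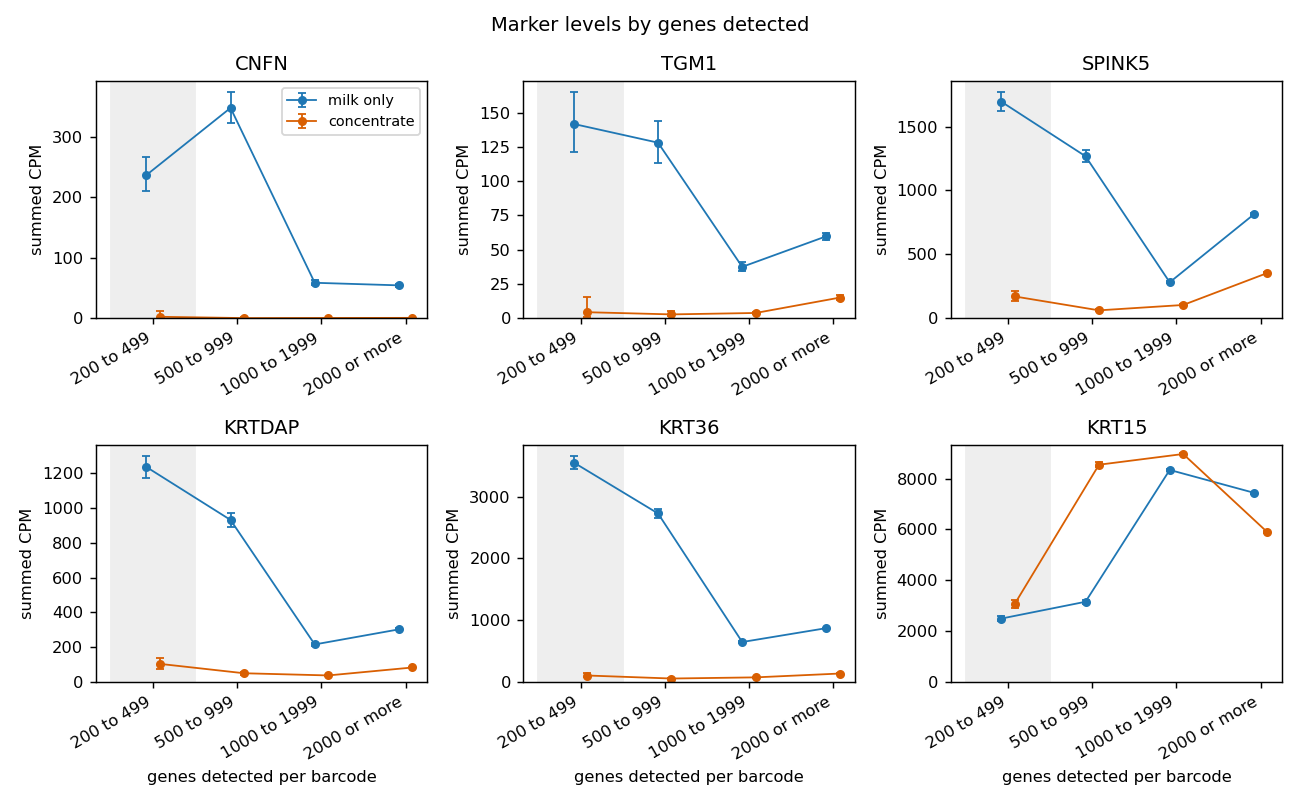
Summed CPM on the y axis of CNFN, TGM1, SPINK5, KRTDAP, KRT36 and KRT15 in 4 ranges of genes detected (x axis) for milk only (blue) and concentrate (orange), with exact 95% counting intervals; the low-gene range is shaded. In milk only the barcodes of 500 to under 1000 genes resemble the low-gene range, with CNFN at 347 CPM against 236, while KRT15 rises to 8340.5 CPM at 1000 to under 2000 genes.

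Just inside and outside the gene limit, the 174 milk only barcodes of 450 to under 500 genes and the 117 of 500 to under 550 genes had SPINK5 at 1726 and 1816 CPM, KRTDAP at 1279 and 1359 CPM and KRT15 at 2208 and 2252 CPM. CNFN was at 270 and 96.4 CPM and TGM1 at 173 and 76.1 CPM. FOS, an immediate-early transcription factor, was at 3.85 CPM inside and 335 CPM outside. In concentrate, the 76 barcodes inside and 70 outside had SPINK5 at 276 and 215 CPM and KRT15 at 3016 and 4376 CPM, with no CNFN UMI in either. Past the mitochondrial limit KRTDAP was lower in milk only, while CNFN at 20 to 40% lay within its range below the limit. KRTDAP was at 1332 CPM in the 363 barcodes under 5%, at 1339 from 5 to 10% (n = 390), 987 from 10 to 20% (n = 324), 184 from 20 to 40% (n = 219) and 73.6 at 40% or more (n = 241). CNFN was at 315, 218, 159, 191 and 19.4 CPM over the same ranges.

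Over all genes with at least 10 CPM in either set, 246 of 4807 in milk only were at least 2-fold higher in low-gene barcodes (5.12%) and 1208 were at least 2-fold lower (25.1%), with a median log2 ratio of -0.34. These shares are the background for the gene groups, and the groups were not chosen independently of these data. Scaling by the median gene ratio, in place of total UMIs, shifts every milk only gene by that median and gives 467 higher and 777 lower. Of 47 genes of the cornified layer, 26 were found by symbol in the gene table and 9 were measured. Of these 6 were higher and 1 was lower, with a median log2 ratio of 1.34, but 4 of the 6 were the naming genes and the median is that of TGM1, so both are set by the genes that named the barcodes. Of the other 5 measured genes 2 were higher and 1 was lower, with a median of 0.27. The 2 were LYPD3 (a surface protein of suprabasal keratinocytes) at 594 CPM against 221 (2.68-fold), and TMPRSS11D (a serine protease of squamous epithelia) at 21.1 against 3.63 (5.82-fold, from 25 UMIs). ECM1 was at 236 against 202 CPM and CST6, a cystatin protease inhibitor, at 31.2 against 26.0. EVPL (envoplakin, an envelope scaffold) was lower with 4 UMIs, at 3.38 against 10.6 CPM. When only the 785 barcodes of 500 to under 1000 genes served as reference, 0 of 8 cornified genes were higher and the median fell to 0.36. Over all genes 58 of 4570 were higher against that reference. The milk only calls for this group therefore describe low-gene barcodes against those of 1000 genes or more.

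Other genes of upper layers were also higher in the milk only low-gene barcodes. Of 5 measured upper-layer keratins 3 were higher and none lower, with a median log2 ratio of 2.01. KRT36 was at 3555 CPM against 882 (4.03-fold), KRT4 (a keratin of mucosal upper layers) at 12.7 against 1.26 (10.0-fold, from 15 UMIs) and KRT78 at 17.7 against 3.45 (5.14-fold). KRT17 was at 3292 against 1672 CPM, a ratio of 1.97. Among 8 desmosome and spinous genes, DSC2 (desmocollin 2) at 366 against 113 CPM and PERP (a desmosomal membrane protein) at 76.8 against 36.4 were higher, and DSG2 (desmoglein 2) at 4.22 against 25.8 was lower. Among 12 other junction genes 3 were higher and none lower. These were the gap junction connexins GJA1, at 416 against 101 CPM (4.14-fold), and GJB2, at 170 against 33.3 (5.10-fold), and the claudin CLDN7, at 2.05-fold. Against barcodes of 500 to under 1000 genes, none of the measured keratins or desmosome genes was higher, beside 58 of 4570 over all genes. GJA1, GJB2 and CLDN7 are not given against that range, so their ratios hold against all reference barcodes only.

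Secreted defence and inhibitor genes made up another group in milk only. Of 11 protease inhibitors 4 were higher and 2 lower, with a median log2 ratio of 0.28. Beside SPINK5, the higher ones were PI3 (elafin, an elastase inhibitor) at 242 against 64.5 CPM (3.76-fold), A2ML1 (a broad protease inhibitor of the epidermis) at 704 against 238 (2.96-fold) and SERPINB12 at 54.0 against 10.0 (5.40-fold). Of 10 S100 and annexin genes 4 were higher and 1 was lower. These were S100A8 at 5415 against 1443 CPM (3.75-fold), S100A9 at 4456 against 1125 (3.96-fold), S100A12 at 3909 against 1059 (3.69-fold) and ANXA1 at 7849 against 2223 (3.53-fold). S100A8 and S100A9 form calprotectin, an antimicrobial protein of epithelia and neutrophils. Of the 7 other neutrophil markers found by symbol, none was measured in milk only. The epithelial interleukin IL36A was at 113 against 25.9 CPM (4.37-fold) and its receptor antagonist IL36RN at 57.4 against 15.2 (3.79-fold). The ratios in this and the next paragraph are against all reference barcodes. Against those of 500 to under 1000 genes 58 of 4570 genes were higher, in place of 246 of 4807. The genes of these 2 paragraphs are not given against that range, so barcodes nearest in genes detected may share their levels.

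Further genes with large milk only ratios were ENDOU (an endoribonuclease) at 68.4 against 11.4 CPM (5.98-fold), ELF5 (an epithelial ETS transcription factor) at 54.9 against 10.0 (5.47-fold) and AKR1D1 (a steroid reductase) at 585 against 108 (5.40-fold, in 395 barcodes). Of 12 barrier lipid genes, SULT2B1 (cholesterol sulfotransferase) at 237 against 62.2 CPM and ALOX15B (a lipoxygenase) at 56.6 against 16.3 were higher and 1 gene was lower. Of 15 genes of oxidative defence 3 were higher and 1 was lower, with GSTA1 (a glutathione transferase) at 2728 against 1039 CPM and PRDX6 (a peroxiredoxin) at 2408 against 928. CA1 (a carbonic anhydrase) was the most abundant gene in milk only, at 50740 CPM in low-gene barcodes (interval 50335 to 51148) against 21972 in the reference, 2.31-fold higher. The largest ratio belonged to SDS (serine dehydratase), at 187 against 10.7 CPM (17.4-fold), but its 221 UMIs lay in 12 barcodes.

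The genes that were lower in the milk only low-gene barcodes included the basal layer and the cell cycle. All 8 measured basal genes were lower, with a median log2 ratio of -1.86, and 17 of 22 cell cycle genes were lower with none higher. KRT15 was at 2487 against 7525 CPM (3.03-fold lower), COL17A1 (a hemidesmosome collagen) at 12.7 against 89.8 (7.09-fold lower) and ITGA6 (the basal integrin) at 18.6 against 129 (6.94-fold lower). ITGB4, its partner, had no UMI against 11.2 CPM, at least 4.41-fold lower with a floor of 3 counts over the set. TP63, the transcription factor of basal keratinocytes, was at 15.2 against 39.3 CPM. TOP2A, a topoisomerase of dividing cells, was at 57.4 against 165 CPM and CENPF, a kinetochore protein, at 27.0 against 129. Against barcodes of 500 to under 1000 genes, 3 of 7 basal genes and 0 of 11 cell cycle genes were lower. Over all genes 714 of 4570 were lower against those barcodes.

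Immediate-early genes, which are transcribed within minutes of a stimulus and have short-lived transcripts, had the lowest median in milk only among the gene groups with 3 or more measured genes. All 16 measured were lower, with a median log2 ratio of -3.38, against 25.1% of all genes. FOS was at 21.1 CPM, from 25 UMIs in 22 barcodes, against 1268 (60.1-fold lower, interval 40.7 to 92.9). JUN was at 89.5 against 1886 CPM (21.1-fold lower), ATF3 at 11.8 against 342 (28.9-fold lower) and EGR1 at 3.38 against 71.9 (21.3-fold lower). ZFP36, which destabilises such transcripts, was at 144 against 1859 CPM (12.9-fold lower). Against barcodes of 500 to under 1000 genes 10 of 13 were lower (median -2.07), beside 714 of 4570 over all genes. Against the 112 reference barcodes with 747 to 1681 UMIs 11 of 14 were lower (median -1.59), beside 2006 of 5294 over all genes. The median of these 112 was 1518.5 UMIs, still above the 1025 of the low-gene barcodes. Of 10 inflammatory genes 7 were lower and 3 higher, with IL1B at 74.3 against 332 CPM and NFKBIA at 316 against 1314. Immune transcripts were also lower in the low-gene set: the T or NK markers summed to 110 CPM against 249.2, with 5 of 15 at 0, and the macrophage or dendritic markers to 38.0 against 146, with 10 of 19 at 0. With barcodes of 3 or more immune, fibroblast or endothelial markers left out of both sets, and the 31 barcodes of the immune cluster 5 described below left out of the low-gene set, 1046 low-gene barcodes remained. In these 14 of 15 immediate-early genes were lower (median -3.64) and 3 of 6 inflammatory genes were, beside 1179 of 4673 over all genes.

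Groups with few calls in milk only were also measured. None of 7 glycolysis genes was called, with a median log2 ratio of -0.11. Of 25 proteasome genes 1 was lower, and of 12 heat shock genes 3 were lower, with none higher in either group. Of 12 measured mitochondrial genes, whose share the rule limited, 1 was lower.

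In concentrate, 257 of 4732 genes were at least 2-fold higher in low-gene barcodes (5.43%) and 1419 were at least 2-fold lower (30%), with a median log2 ratio of -0.43. Scaled by the median gene ratio these counts were 596 and 858. None of 7 measured cornified genes was higher and 2 were lower, with a median of -0.52. None of 3 upper-layer keratins was called, with KRT36 at 101 against 92.9 CPM. None of 8 desmosome genes was higher and 5 were lower, among them DSP (desmoplakin) at 109 against 615 CPM (5.63-fold lower). PI3 had no UMI in the concentrate low-gene barcodes, and A2ML1 was at 23.6 against 26.9 CPM. Against barcodes of 500 to under 1000 genes, 3 of 5 cornified genes were higher with a median of 1.01, beside 477 of 4670 over all genes. SPINK5 and KRTDAP, at log2 ratios of 1.48 and 1.08, were among the 3. This count thus rests in part on genes that named the barcodes, and it is a description.

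Some genes that were higher in milk only were also higher in concentrate, at lower levels. Of 10 S100 and annexin genes 4 were higher and none lower. S100A8 was at 334 against 100.1 CPM (3.34-fold), S100A9 at 135 against 43.8 (3.08-fold) and S100A12 at 354 against 88.2 (4.01-fold). Few barcodes carried most of these UMIs for 2 of the genes. In concentrate cluster 2, described below, 12 barcodes held 50 of the 63 S100A9 UMIs and 15 held 98 of the 165 S100A12 UMIs. S100A11, at 439.5 against 185 (2.37-fold), was called higher in concentrate but not in milk only. ANXA1, at 1576 against 844 (1.87), was called higher in milk only but not in concentrate. GSTA1 was at 592 against 195 CPM (3.04-fold) and AKR1D1 at 144 against 37.2 (3.86-fold, 41 barcodes). IL36A, with 11 UMIs, was at 23.6 against 4.87 CPM, and ELF5, with 6 UMIs in 5 barcodes, was at 12.9 against 1.06. The basal and cell cycle genes were low here too. All 8 measured basal genes were lower (median -1.89), with KRT15 at 3068 against 7779 CPM and COL17A1 at 32.2 against 123. Of 25 cell cycle genes 22 were lower, with TOP2A at 17.2 against 194 CPM and CENPF at 23.6 against 268. Of 6 ion and solute transport genes 5 were lower, among them ATP1B3 (a subunit of the sodium pump) at 834 against 2386 CPM and CA12 (a membrane carbonic anhydrase) at 227 against 743. The sign of the S100, basal and transport medians was the same with the median gene ratio set to 1.

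The mitochondrial genes were lower in the concentrate low-gene barcodes. The rule limited the share of these same genes in both sets, so their values are a description and support nothing. In concentrate the limit left out 1082 of 1413 barcodes with 200 to under 500 genes. It left out 1565 of those with 500 genes or more, beside the 4891 kept. All 12 measured were lower, with a median log2 ratio of -2.13, and COX3 was at 7598 against 26204 CPM and CYTB at 5400.5 against 25463. In milk only COX3 was at 22618 against 19478 CPM. The median share of UMIs from ribosomal protein genes with a symbol was 19.2% in the concentrate low-gene barcodes against 15.8% in the reference, and 12.3% against 15.2% in milk only. Thinned to 700 UMIs, the median number of genes was 265 against 293 in concentrate and 282 against 297 in milk only. The part of these differences in the gene ratios was not tested.

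A second set of concentrate genes rested on few barcodes. All 6 measured T or NK markers were higher, with a summed level of 283 CPM against 15.8 and 5 of 15 listed markers at 0. CD69 was at 83.6 against 1.62 CPM (51.7-fold, 10 barcodes), IL7R at 55.7 against 2.15 (25.9-fold) and the chemokine XCL1 at 111 against 2.48 (44.9-fold, 7 barcodes). All 6 measured fibroblast markers were higher, at 2339 against 270 CPM summed with 2 of 13 at 0, and COL3A1 had 688 UMIs in 8 barcodes with 43.5% of them in 1. Barcodes with 3 or more T or NK markers were 12 of 331 (3.63%) against 43 of 4891 (0.879%), and those with 3 or more fibroblast markers were 6 of 331 (1.81%) against 62 of 4891 (1.27%), counted without thinning. Of 8 interferon genes 6 were higher, with a median of 2.17, and of 16 immediate-early genes 3 were higher and 5 lower. Without barcodes of 3 or more immune, fibroblast or endothelial markers and without the T or NK-like cluster described below, 300 low-gene barcodes remained. The count of higher genes then fell to 130, 0 of 4 interferon genes were higher, and 8 of 13 immediate-early genes were lower with none higher. In these barcodes 4 of 10 S100 and annexin genes were higher, and 9 of 9 basal and 20 of 24 cell cycle genes were lower.

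**Figure D3:**
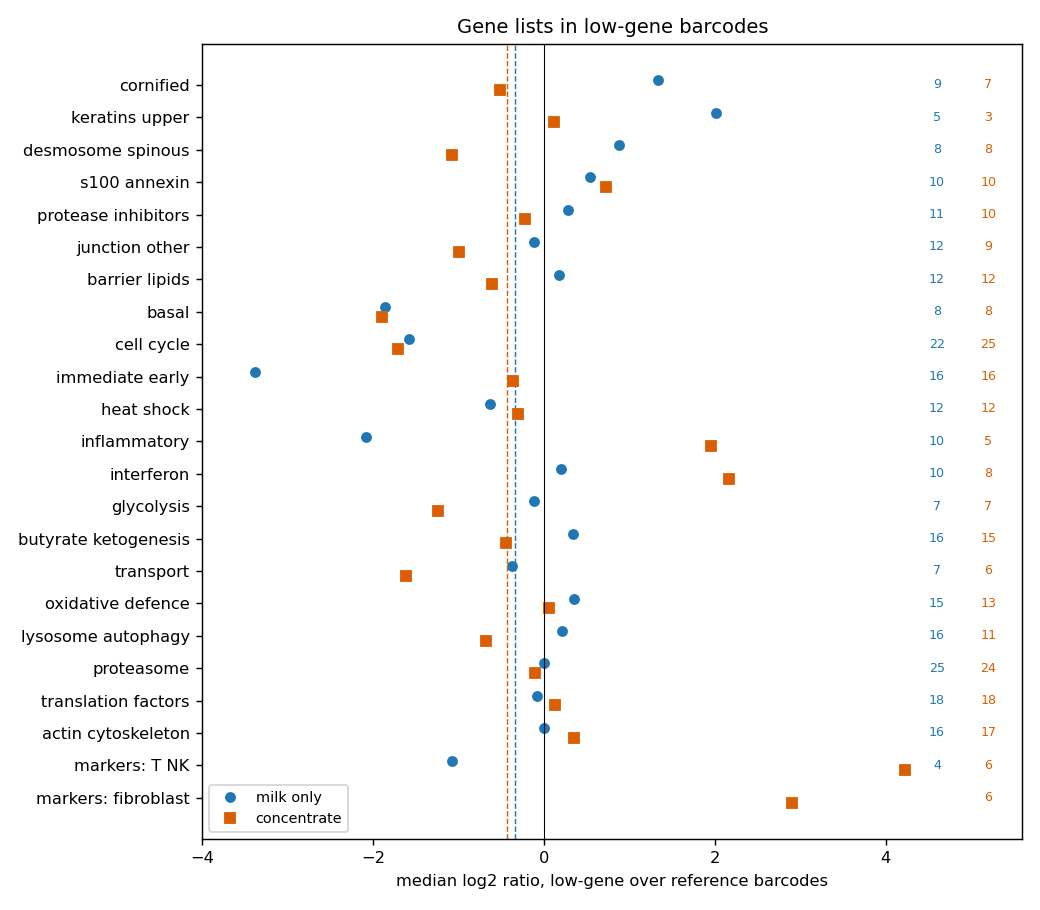
Median log2 ratio of low-gene over reference barcodes (x axis) for each gene list (y axis), in milk only (blue circles) and concentrate (orange squares), with the number of measured genes at right and lists of under 3 measured genes left out. Dashed lines give the medians over all genes, -0.34 and -0.43; cornified (4 of 9 genes named the barcodes) and upper keratin lists lie right of them in milk only, at 1.34 and 2.01, and basal lists lie left in both, at -1.86 and -1.89.

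Across the 4324 genes measured in both libraries the log2 ratios had a Pearson correlation of 0.39, given as a description over genes that share libraries and depth. The 2 lists of higher genes shared 39 genes, 15.9% of the milk only list and 15.2% of the concentrate list. The lists of lower genes shared 605, or 50.1% and 42.6%. Another 40 genes were lower in milk only and higher in concentrate, and 10 were the reverse. Over all measured genes of each library, 25.1% were lower in milk only and 30% in concentrate. The shares of higher genes were 5.12% and 5.43%. The 40 came from 1208 lower genes of milk only and 257 higher genes of concentrate.

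**Figure D4:**
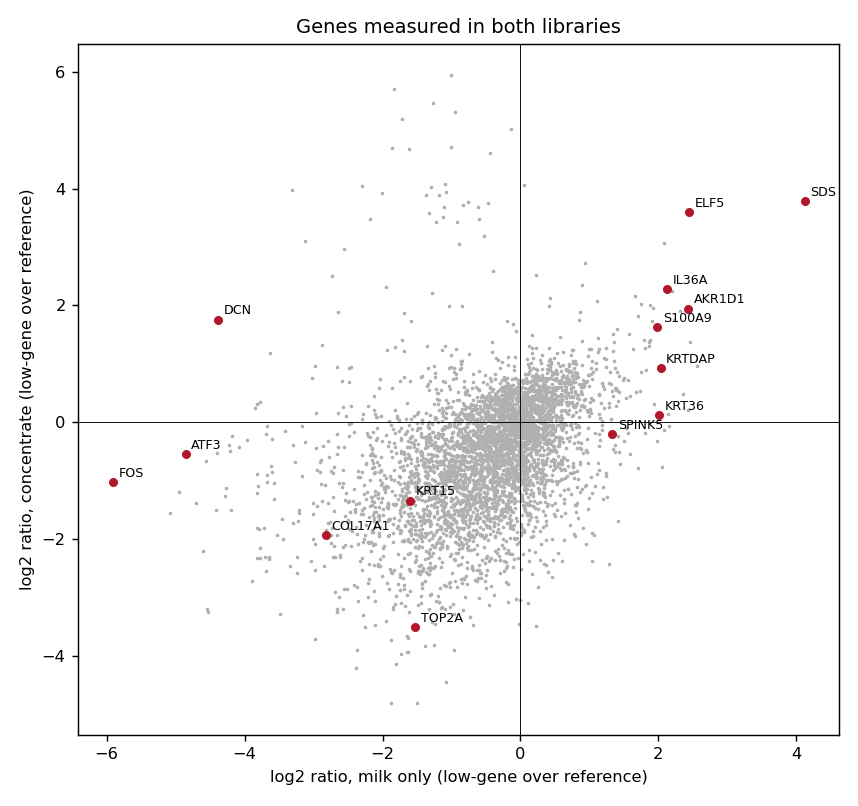
Each grey point is a gene measured in both libraries (n = 4324), with its log2 ratio of low-gene over reference barcodes in milk only on the x axis and in concentrate on the y axis. KRT36 and SPINK5 lie to the right near the zero line of concentrate, at 2.01 and 1.33 in milk only. KRTDAP lies at 2.03 in milk only and 0.92 in concentrate, and FOS lies at -5.91 and -1.03.

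Set directly against each other, the low-gene barcodes of concentrate were lower in genes of upper layers and higher in stromal genes and some immune genes. IL17F was not among the higher ones, at 34.3 CPM against 47.3 in milk only. Of 4385 genes 569 were at least 2-fold higher in concentrate (13%) and 799 at least 2-fold lower (18.2%). KRT36 was 35.3-fold lower in concentrate, S100A9 33.0-fold, A2ML1 29.9-fold and SPINK5 10.0-fold, and KRTDAP was at 103 against 1238 CPM. CNFN had 1 UMI against 280, a log2 ratio of -6.78, and PI3 had 0 against 287, which is at least 37.7-fold lower with the floor of 3 counts per set. The reference barcodes of concentrate were also lower in these genes, with CNFN at a log2 ratio of -8.12 and A2ML1 at -3.15, so the libraries differed in these genes outside the low-gene barcodes as well. The genes higher in concentrate included COL3A1, with 688 UMIs against 1, and COL1A1 and COL1A2, with no UMI in milk only and at least 83.0-fold and 130-fold higher, and CD69 (33.0-fold). Each of these 4 genes lay in 10 or fewer low-gene barcodes of concentrate. FOS was at 262 against 21.1 CPM, 12.4-fold higher, and it too rested on few barcodes: of its 122 UMIs 65 were in 9 barcodes of concentrate cluster 3 and 47 in 13 barcodes of cluster 5, both described below. In the other 3 clusters of concentrate FOS was at 20.3, 32.9 and 43.9 CPM. Between the reference barcodes COL3A1, COL1A2 and COL1A1 were also higher in concentrate, at log2 ratios of 10.0, 9.45 and 5.25. CD69 and FOS were lower in concentrate there, at -2.16 and -1.25. FABP4, a fatty acid binding protein, was at 7512 CPM in concentrate and 2912 in milk only.

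The low-gene barcodes were not 1 population. Clustered on their own, with the same genes then used to describe them and no test, the milk only barcodes fell into 5 clusters. Cluster 3 (n = 190) held 242 of the 280 CNFN UMIs, in 65 of its barcodes, at 1145.5 CPM. It also had TGM1 at 407 CPM, KRTDAP at 3171, PI3 at 1122, ENDOU at 303, S100A9 at 14882 and PRD-SPRRII, a small proline-rich envelope protein gene by its symbol, at 724. KRT15 was at 573 CPM there, and FOS and TOP2A had no UMI. All 4 naming genes were at their highest or next highest level in cluster 3, which is called cornified keratinocyte-like. Cluster 2 (n = 364) had the highest SPINK5, at 3077 CPM, with KRTDAP at 1735, LYPD3 at 956, KRT36 at 5216 and GSTA1 at 4198, but CNFN at 43.7.

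Cluster 1 was the largest of milk only (n = 395, 36.7%) and had the basal keratin KRT15 at 5489 CPM, with SELENBP1, IGFBP5 and TOP2A (137 CPM) also leading. SPINK5 was at 402 CPM and CNFN at 34.2 in it. So 36.7% of the low-gene barcodes of milk only lay in a cluster led by a basal and not by a cornified gene. Cluster 4 (n = 97) was led by GSTA1 at 7614 CPM and otherwise by genes in 12 or fewer barcodes, and it stays unnamed. Cluster 5 (n = 31) held 217 of the 221 SDS UMIs. It had PTPRC at 766 CPM and IL17F at 1361, but its 48 IL17F UMIs lay in 5 barcodes, with 72.9% of them in 1. In this cluster 9 of 15 T or NK and 9 of 19 macrophage or dendritic markers were raised at least 2-fold over the other low-gene barcodes. It stays unnamed as a mix of immune genes.

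Concentrate also gave 5 clusters. Cluster 2 (n = 87) held 68 of the 79 SPINK5 UMIs and 41 of the 48 KRTDAP UMIs, with KRT36 at 370 CPM, SPINK5 at 559, GSTA1 at 1808, ANXA1 at 4101 and S100A9 at 411. The CNFN UMI and both TGM1 UMIs were in it, and PI3 had none. Cluster 3 (n = 64) had KRT15 at 6087 CPM and was led by COL3A1, whose UMIs lay in 5 of its barcodes, and cluster 4 (n = 52) by the dehydrogenase DHRS7 at 1668 CPM and CA12, with KRT15 at 5722. Cluster 1 (n = 104) was led by MND1 and SPC24, each in 19 barcodes, and had a median mitochondrial share of 0.597%. Cluster 5 (n = 24) had RGS2 at 5255 CPM, PSMB8 at 1779, XCL1 at 1423, CD69 at 1067 and FOS at 1286, with 10 of 15 T or NK markers raised, and is called T or NK-like. It held all 65 PSMB8 UMIs of the concentrate low-gene barcodes. The other 4 clusters are left unnamed.

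**Figure D5:**
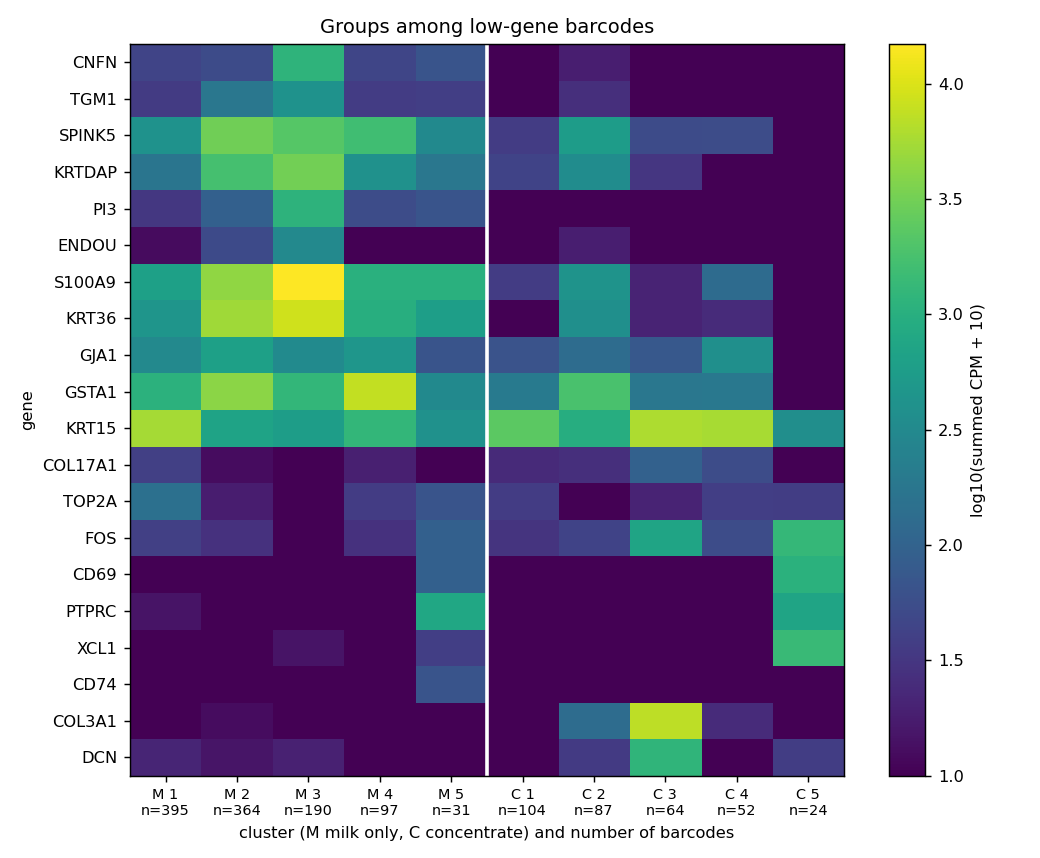
Level of 20 genes (rows) in the clusters of low-gene barcodes (columns; M milk only, C concentrate, with the number of barcodes), coloured by log10 of summed CPM plus 10. CNFN, PI3 and ENDOU are bright in M 3 alone among the 10 clusters, KRT15 in M 1, C 3 and C 4, and COL3A1 in C 3.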

How the data were processed

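UMI count matrices of 3 libraries were used as the authors deposited them. They were made with Cell Ranger, version 3.1 per the submitters' processing notes and 5.0.0 per the file headers, and the difference is not settled. Genome build and annotation: not given in the sources used here. Of 26247 genes, 14653 carry a symbol used once. Low-gene and reference barcodes were chosen by genes detected (200 to under 500, 500 or more) and under 20% mitochondrial UMIs. Counts were summed per set and library and scaled to CPM (per 1000000 UMIs). A gene was measured from 10 CPM in either set and called at a 2-fold ratio, and a count of 0 was set to 3 counts. Intervals are exact Poisson, conditional binomial or Clopper-Pearson at 95%. Barcodes were clustered with scanpy 1.11.5 and leidenalg 0.10.2 (2000 variable genes, 30 components, 15 neighbours, resolution 0.6). No doublet caller was run. numpy 2.4.6, scipy 1.17.1 and pandas 2.3.3 did the rest, and the ratio script was checked on simulated data. Named genes were the 12 highest and 12 lowest ratios per library from 50 CPM with an interval excluding 1, without ribosomal and mitochondrial genes, up to 4 genes per list by size of log2 ratio, the 10 most abundant, 8 per direction between libraries and the 4 naming genes. Cluster genes and a few list members given for comparison were chosen after their values were seen. The members and lists were chosen with earlier results of these data known. Of the 19 alternative settings, a call rule that needs an interval excluding 1 and the removal of barcodes of other cell types were added after seeing the data. The result of 1 gene, and of its list, is not reported here.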

Additional observations from a re-analysis of the deposited data

Results flagged for a closer look

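Of the 40 genes that were at least 2-fold lower in the low-gene barcodes of milk only and at least 2-fold higher in those of concentrate, the 16 given here are those taken by the rule for named genes with intervals excluding 1 in both libraries. The difference was not tested. Over all measured genes, 25.1% were lower in milk only and 5.43% were higher in concentrate. The first value of each pair is the log2 ratio in milk only and the second that in concentrate. T or NK cell genes were IL7R (-1.86 and 4.70), XCL1 (-2.50 and 5.49), IL17F (-1.33 and 3.59) and GATA3 (-1.41 and 5.16). Further genes, most of them known from immune cells, were RGS1 (-1.19 and 3.90), RGS2 (-1.10 and 4.08), LAPTM5 (-1.07 and 3.94), ARPC1B (-1.14 and 1.24), PSMB8 (-1.29 and 2.22), PSMB9 (-1.03 and 1.99) and SLC2A3 (-1.10 and 3.69). The fibroblast genes were DCN (-4.39 and 1.75) and POSTN (-3.31 and 3.98). The early response genes were KLF6 (-3.27 and 2.87), NR4A2 (-3.13 and 3.10) and TNFAIP3 (-2.74 and 2.51). In concentrate, 12 of 331 low-gene barcodes carried 3 or more T or NK markers and 6 carried 3 or more fibroblast markers. T or NK markers at that number were in 353 of 3850 reference barcodes of milk only (9.17%) and 43 of 4891 of concentrate (0.879%). Low-gene UMIs in concentrate and milk only were 16 and 56 for IL17F (34.3 and 47.3 CPM) and 52 and 2 for XCL1. They were 26 and 12 for IL7R and 7 and 4 for GATA3. In CPM the genes other than IL17F were higher in concentrate. Of the IL17F UMIs in concentrate 75% lay in 1 barcode, and of the 56 in milk only 48 lay in 5 barcodes of cluster 5. The part of the reference in these ratios was not tested.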

How the results depend on the processing

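No paired analysis was possible because each diet had 1 library and no replicate numbers. Among 19 alternatives, 105 of the summary values stayed in a set range and 41 moved out of it. The range was 1.5-fold either way for a count and the median counting interval of the genes for a median. A value in its range can still change sign. The concentrate cornified median of -0.52 was 0.022 by mean share and 0.0032 with a mitochondrial limit of 10%. In milk only, the cornified median log2 ratio was 1.91 with a mitochondrial limit of 10%, 1.19 with 30%, 0.36 against barcodes of 500 to under 1000 genes, 0.25 against those nearer in depth (median 1518.5 UMIs, against 1025 in the low-gene barcodes) and 1.68 with the median gene ratio set to 1. The count of cornified genes called higher was 0, 2 and 2 against 500 to under 1000 genes, at nearer depth and with a 4-fold call. CNFN turned to -0.56 against 500 to under 1000 genes and SPINK5 to -0.71 at nearer depth, and in concentrate KRTDAP turned to -0.47 at nearer depth and SPINK5 to 1.75 with a mitochondrial limit of 10% and 1.48 against 500 to under 1000 genes, and the cause was not tested. The higher genes of milk only numbered 58 against 500 to under 1000 genes, 467 by median gene ratio, 697 from 1 CPM, 115 from 50 CPM, 537 at 1.5-fold and 47 at 4-fold. The lower genes numbered 714, 777, 2499, 278, 1884 and 347 in that order, and 2006 at nearer depth. In concentrate the higher genes numbered 477 against 500 to under 1000 genes, 438 without the 50 most abundant genes, 596 by median gene ratio, 1191 from 1 CPM, 58 from 50 CPM, 569 at 1.5-fold, 105 at 4-fold and 130 without other cell types. The lower genes numbered 2935 at nearer depth, 858 by median gene ratio, 384 from 50 CPM and 377 at 4-fold. Cornified genes called higher in concentrate numbered 2 with a mitochondrial limit of 10%, 3 against 500 to under 1000 genes and from 1 CPM, and 1 at nearer depth, by mean share, by median gene ratio and at 1.5-fold, and their median turned from -0.52 to 1.01 against 500 to under 1000 genes. The 3 called against 500 to under 1000 genes included SPINK5 and KRTDAP, which named the barcodes. Concentrate held 466440 low-gene UMIs, so 1 UMI is 2.14 CPM of CNFN there and lower levels were not detectable.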
